A study of Bos indicus with 9 samples.

Results

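Open chromatin of the hypothalamus was compared with open chromatin of the liver in Brahman heifers (Bos indicus), using ATAC-seq, an assay of transposase-accessible chromatin in which the Tn5 transposase cuts DNA that is free of nucleosomes. Frozen tissue came from 3 unrelated post-pubertal heifers of similar age and weight, with a hypothalamus and a liver library from each animal, 6 libraries in all. The sample labels and the paper name no treatment of the animals. Tissue was the factor compared, and muscle of the same heifers was not used. The paper states that the ratio of nuclei to enzyme was optimized for each sample. Nuclei were taken from ground whole tissue, so every list mixes the cell types of its organ, and a smaller number of cells of a type cannot be told apart from less accessibility per cell. Each tissue has a single consensus peak list that pools its 3 heifers.

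The peaks compared were those on chromosomes 1 to 29 that start at or after position 1000000. This rule kept 68177 of the 78528 hypothalamus peaks (86.8%) and 10465 of the 22291 liver peaks (46.9%). Most peaks left out, 9395 in hypothalamus and 10932 in liver, lay on other sequences, and 956 and 894 lay in the first 1 Mb of an autosome. Each peak has a position on the ARS-UCD1.2 build, the peak caller's signal summed along the peak (AUC, area under the curve), and the −log10 p at its summit. Neither value was scaled between tissues, so strength was compared as the percentile of a peak within its own list. The lists carry neither read counts nor values of the individual heifers, so the depth behind a peak is unknown, the spread between heifers cannot be given, and no test between the tissues was made. Shares carry Wilson 95% intervals, which cover counting error only.

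Open chromatin marks promoters, where transcription starts, and enhancers, which lie at a distance and are often used in some tissues only. Promoters of genes needed by every cell are commonly open in most tissues. The hypothalamus holds neurons and glia that govern appetite, growth, and reproduction, and the liver is made mainly of hepatocytes, which secrete plasma proteins and process nutrients and bile acids.

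The hypothalamus list held more peaks, and longer ones, than the liver list. Its deposited AUC and summit values were also higher, on scales that were not matched between tissues. There were 6.51 hypothalamus peaks for every liver peak, and the peaks covered 58.3 Mb against 5.93 Mb, a ratio of 9.83. The median peak length was 567 bp (quartiles 353 and 1062 bp) in hypothalamus and 490 bp (342 and 677 bp) in liver. The median AUC was 869.6 (quartiles 404.4 and 2589) in hypothalamus and 516 (315.3 and 909.9) in liver. The median −log10 p at the summit was 5.99 (quartiles 4.47 and 9.57) against 4.57 (3.94 and 5.56). A summit value of at least 10 was reached by 15933 hypothalamus peaks (23.4%) and by 89 liver peaks (0.85%). With summits of at least 5 in both lists, 43698 hypothalamus and 3920 liver peaks were left, and the ratio rose to 11.1.

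The liver list lay largely inside the hypothalamus list. Of the liver peaks, 9406 shared at least 1 bp with a hypothalamus peak (89.9%, 95% interval 89.3 to 90.4). Of the hypothalamus peaks, 8815 shared at least 1 bp with a liver peak (12.9%, 12.7 to 13.2). The 5.29 Mb covered in both lists made up 89.2% of the liver sequence and 9.08% of the hypothalamus sequence. The remainder was 59362 peaks found only in hypothalamus and 1059 found only in liver. Of the hypothalamus-only peaks, 50318 (84.8%) had no liver peak within 10 kb either. Of the liver-only peaks, 444 (41.9%) had no hypothalamus peak within 10 kb, and 171 had one within 1 kb.

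Shared peaks were the longer and stronger ones of both lists. Shared hypothalamus peaks had a median length of 1724 bp and a median summit −log10 p of 15.7, against 509 bp and 5.54 for hypothalamus-only peaks. In liver the medians were 498 bp and 4.70 for shared peaks and 395 bp and 3.80 for liver-only peaks. Ranked by summit into 10 bins of equal size, hypothalamus peaks overlapped a liver peak in 1.72% of cases (1.43 to 2.05) in the weakest bin, 9.46% (8.79 to 10.2) in the eighth, 31.9% (30.8 to 33.0) in the ninth, and 71.1% (70.0 to 72.2) in the strongest. In liver the share was 67.0% (64.1 to 69.8) in the weakest bin and 99.3% (98.6 to 99.7) in the strongest. Sharing was therefore read on equal numbers of peaks as well.

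With the same number of peaks in each list, the 10465 strongest by summit −log10 p, 65.9% of the liver peaks (64.9 to 66.8) and 60.5% of the hypothalamus peaks (59.5 to 61.4) were shared. The 10465 hypothalamus peaks had summits of at least 12.7 and a median length of 1822 bp, so the lists still differed in peak length. With the strongest 5000 of each list, 64.3% (63.0 to 65.6) of the liver peaks and 62.2% (60.8 to 63.5) of the hypothalamus peaks were shared. With the strongest 1000, the shares were 47.7% (44.6 to 50.8) and 47.2% (44.1 to 50.3). These shares were lower than with 5000 peaks, but the other list was cut to the same number, which left fewer possible partners. They therefore do not show that the strongest peaks are shared less. Against the full lists, the strongest bin was shared in 71.1% of hypothalamus and 99.3% of liver peaks. Among the 10465 strongest hypothalamus peaks, 4136 (39.5%, 38.6 to 40.5) touched no liver peak.

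**Figure D1:**
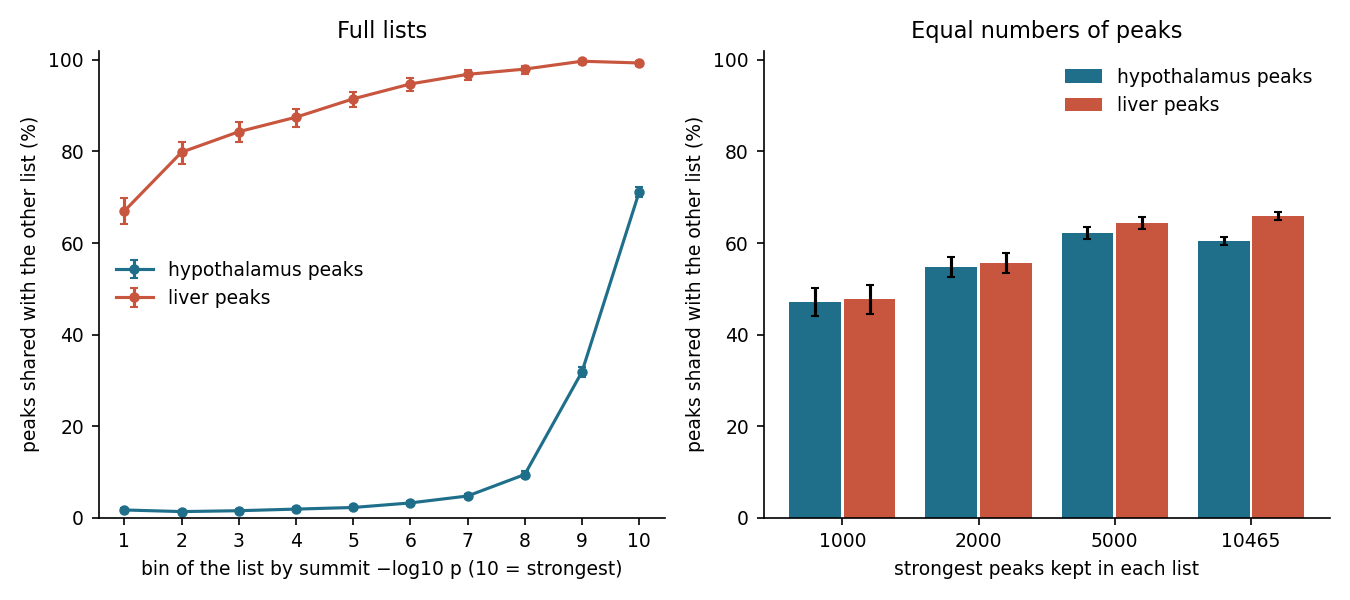
Left, share of peaks (%) that overlap the other list by at least 1 bp, for 10 bins of each full list ranked by summit −log10 p (10 is the strongest), and right, the same share when equal numbers of the strongest peaks are kept; bars and whiskers give the share and its Wilson 95% interval. Sharing in hypothalamus climbs from 1.72% to 71.1% over the bins, and with equal numbers both tissues lie between 47.2% and 65.9%.

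Most shared peaks had a single partner. Of the 8815 shared hypothalamus peaks, 8250 overlapped 1 liver peak and 565 overlapped 2 or more, and 39 liver peaks that overlapped 2 or more hypothalamus peaks. The broadest example by count was chr29:43608742-43618076, a hypothalamus peak of 9335 bp in the 99.9 percentile of AUC that held 5 liver peaks. In the opposite direction, the liver peak chr6:5432941-5462105, 29165 bp long and with an AUC of 176453, overlapped 4 hypothalamus peaks. Both were named after their values were seen.

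Peaks that overlapped one to one, with no other partner on either side, numbered 8169, which is 78.1% of the liver peaks and 12.0% of the hypothalamus peaks. In these pairs the liver peak lay wholly inside the hypothalamus peak in 7574 cases (92.7%). The median length was 1678 bp in hypothalamus and 501 bp in liver, and the summits were a median of 33 bp apart (quartiles 7 and 79 bp). The summits of 5002 pairs (61.2%) lay within 50 bp of each other, and those of 203 pairs (2.49%) lay over 500 bp apart. The highest point of a shared region was thus placed close together in most pairs although the breadth of the region differed.

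The AUC of the paired peaks stood at a median percentile of 90.7 (quartiles 83.5 and 95.4) in the hypothalamus list and of 55.1 (29.6 and 77.6) in the liver list. The median difference, hypothalamus minus liver, was 30.2 percentile points (quartiles 12.0 and 51.9). It was −5.34 points over the 5836 pairs formed by the 10465 strongest peaks of each list, so its direction depended on how many peaks were kept. The order of the pairs was partly kept between the lists, with a Spearman correlation of 0.57 and a Pearson correlation of 0.36 over the 8169 pairs. AUC is summed along a peak, and with AUC per bp the Spearman correlation was 0.42. These values are given as a description because both lists come from the same heifers and regions. Pairs at or below the 25 percentile of liver AUC had a median hypothalamus percentile of 82.8 (quartiles 70.2 and 89.1), and those above the 75 percentile had one of 96.2 (93.4 and 98.1). Both percentiles were at least 90 in 796 pairs (9.74%).

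**Figure D2:**
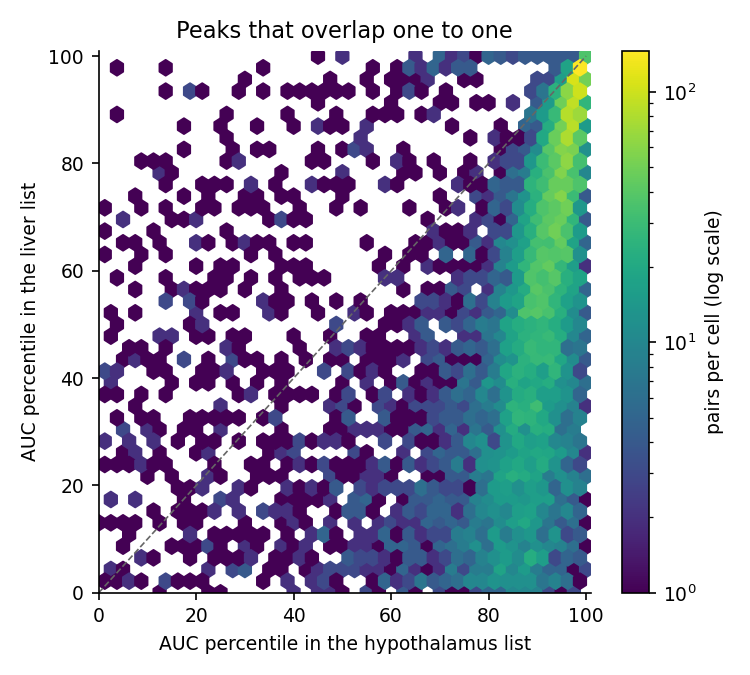
AUC percentile of each of the 8169 one-to-one pairs within the hypothalamus list (horizontal axis) and within the liver list (vertical axis); color gives the number of pairs per cell on a log scale, and the dashed line marks equal percentiles. Most pairs lie below the line near the right edge, where the hypothalamus percentile is high, and 525 pairs lie above it.

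The 525 pairs with the higher percentile in liver (6.43%) differed in length from the others. AUC is summed along a peak, so length enters the value that chose these pairs, and the contrast is given as a description. Their median length was 495 bp in hypothalamus and 537 bp in liver, against 1722 bp and 499 bp in the other 7644 pairs. Both ends of the peak fell within 10 bp of each other in 96 of the 525 pairs (18.3%), against 18 of the 7644 (0.235%). Of the 105 liver peaks at or above the 99 percentile of AUC, 104 overlapped a hypothalamus peak, and 75 did so one to one. In these 75 pairs the median hypothalamus percentile was 93.3 (quartiles 80.6 and 99.6) and the median length was 1722 bp in liver.

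The 3 pairs strongest in both lists had nearly the same limits in both tissues. The hypothalamus peak chr2:121566472-121576318 had an AUC of 166945 and the liver peak chr2:121566471-121576305 one of 153077, and both covered a start of MIR2887-1, a microRNA gene that the annotation used here placed at 2 sites. The peaks chr27:6219464-6226228 in hypothalamus and chr27:6219468-6226226 in liver had AUCs of 188565 and 140326 and lay 1853 bp from the other MIR2887-1 site. The peaks chr21:33010464-33024395 and chr21:33010429-33024467 had AUCs of 85249 and 113828. Sequence with several copies in the genome shares its reads between them, so the values at these places are uncertain.

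The 3 pairs with the largest difference in favor of hypothalamus were broad hypothalamus peaks with a short liver peak inside. Length enters the AUC by which the pairs were ranked, so this shape is not independent of the choice. At chr21:42612428-42616225 the hypothalamus peak stood at the 99.0 percentile, and the liver peak of 206 bp at the 1.02 percentile. The hypothalamus peak chr19:25017880-25021565 (98.5 percentile) lay 21981 bp from the start of GGT6, and its liver partner stood at 0.602. The hypothalamus peak chr5:116352519-116354951 stood at 97.8, with a liver partner at 0.0478.

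Pairs with the largest difference in favor of liver were the reverse, and the same limit holds for them. At chr15:83956778-83958570 the liver peak stood at the 97.1 percentile and the hypothalamus peak inside it at 2.88. The liver peak chr16:54441150-54443433 stood at 97.9, with its hypothalamus partner at 14.3.

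Peaks without a counterpart were ranked by AUC within each list. The 3 leading hypothalamus-only peaks were chr19:51556113-51577764 (21652 bp, AUC 71043), chr16:51111243-51128550 (17308 bp, AUC 62860), and chr19:40365123-40379575 (14453 bp, AUC 59605). The 3 leading liver-only peaks were chr18:50134877-50138475 (3599 bp, AUC 4022), chr18:57221111-57224571 (3461 bp, AUC 2784), and chr17:2848814-2850251 (1438 bp, AUC 2352). The last of these lay 7949 bp from the start of FGG, which encodes the gamma chain of fibrinogen, a clotting protein made in the liver. It stood at the 97.4 percentile of the liver list, with a summit −log10 p of 6.26.

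Gene starts were read from the part of the authors' gene annotation analyzed here, which places 2236 genes on the ARS-UCD1.2 build. A gene is placed there because it is the nearest gene of some peak, and 1827 of them lie on chromosomes 1 to 5, so the placed genes are no sample of all genes. Within 3 kb of the start, 1425 placed genes (63.7%) had a peak in both tissues, 416 (18.6%) in hypothalamus only, 28 (1.25%) in liver only, and 367 (16.4%) in neither. With equal numbers of peaks the balance turned over, to 104 genes with hypothalamus only and 246 with liver only, so both classes below hold for the full lists. Over the first 97.0 Mb of chromosome 1, where the annotation of all hypothalamus peaks was at hand, 135 of 296 genes (45.6%, 40.0 to 51.3) had both, 81 (27.4%, 22.6 to 32.7) had hypothalamus only, and 1 (0.338%, 0.0597 to 1.89) had liver only.

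On that part of chromosome 1, peaks within 3 kb of a gene start made up 62.0% of hypothalamus peaks shared with liver (127 of 205, 55.1 to 68.3) and 8.35% of hypothalamus-only peaks (137 of 1640, 7.11 to 9.79). Among liver peaks, the shares were 63.0% of shared peaks (138 of 219, 56.4 to 69.1) and 2 of 14 liver-only peaks (14.3%, 4.01 to 39.9). Most shared peaks were thus close to a gene start, and most hypothalamus-only peaks were not, with a median distance of 60.7 kb. Over all peaks on this part the shares were 14.3% in hypothalamus (12.8 to 16.0) and 60.1% in liver (53.7 to 66.2). The hypothalamus share rose to 47.9% (42.0 to 53.9) among its strongest peaks, 265 of which fell on this part. Of those 265, 72.2% of the shared (64.4 to 78.9) and 19.0% of the hypothalamus-only peaks (13.0 to 26.9) were near a start.

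Marker genes of both tissues were looked up next. Of 186 genes in 17 lists, 25 were placed. All 6 placed genes used in every cell had a peak in both tissues, beside the 63.7% of all placed genes. ACTB, the cytoskeletal beta-actin, had AUC percentiles of 99.6 in hypothalamus and 90.4 in liver, and YWHAZ, a 14-3-3 adaptor protein, had 99.2 and 87.2. B2M, the light chain of class I histocompatibility molecules, had 88.3 and 84.5. GAPDH, an enzyme of glycolysis, had 99.9 and 55.9, and PPIA, cyclophilin A, had 95.7 and 59.3. In all 6 the hypothalamus percentile was the higher one, which held for the median placed gene with both peaks as well (93.1 and 62.2). Some placed genes with both peaks stood higher in liver. The lists differ in size, and the median difference of the one-to-one pairs was −5.34 points with equal numbers of peaks.

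Of the 7 placed brain genes on the lists, 5 had a peak only in hypothalamus and 2 had none, beside 18.6% and 16.4% of all placed genes. OLIG1, a transcription factor of the oligodendrocyte lineage, had 2 hypothalamus peaks near its start, the larger at the 94.4 percentile (chr1:2498446-2500881). S100B, a calcium-binding protein of astrocytes, had 3, the largest at the 94.7 percentile (chr1:146279318-146280856). DLX1 and DLX2, homeobox factors of inhibitory neurons, had peaks at the 72.4 and 52.7 percentiles, and MAP2, a neuronal microtubule protein, had one at the 32.3 percentile. No peak of either tissue lay within 3 kb of the start of SST, the inhibitory peptide somatostatin, or of GHSR, the ghrelin receptor. Among these, the largest peaks of OLIG1 and S100B alone had a summit above the lowest of the 10465 strongest peaks.

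Most liver genes on the lists had no liver peak near the start. Of the 7 placed secreted proteins, 1 had both peaks, 2 liver only, 3 hypothalamus only, and 1 neither. The 2 placed metabolism genes had neither, and the 1 placed transcription factor had both. Among all placed genes, 63.7% had both, 1.25% liver only, 18.6% hypothalamus only, and 16.4% neither. FGG had 2 liver peaks near its start and none in hypothalamus, the larger at chr17:2843706-2844297 with an AUC percentile of 16.8. AMBP, the precursor of the plasma protein alpha-1-microglobulin, had 1 liver peak at the 15.9 percentile (chr8:103308443-103308934). APOA2, an apolipoprotein of high-density lipoprotein, had peaks in both tissues, at the 79.2 percentile in liver and the 92.2 in hypothalamus. CEBPB, a transcription factor of the acute phase, also had both, at 94.6 and 98.5.

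TF, which encodes the iron carrier transferrin and is also used by oligodendrocytes, had 3 hypothalamus peaks and no liver peak, the largest at the 99.6 percentile (chr1:135613630-135618878). AHSG, the plasma glycoprotein fetuin A, had its largest hypothalamus peak at the 83.1 percentile, and CP, the copper-binding ceruloplasmin, had one at 47.1, both without a liver peak. No peak was near the start of FETUB, the plasma protein fetuin B, of SLC10A1, the bile acid importer of hepatocytes, or of SLC2A2, their glucose transporter. CD5L, a macrophage protein, had none either. DES, the intermediate filament of muscle, had a hypothalamus peak at the 3.62 percentile only. The ependymal, endothelial, blood, stellate cell, and bile duct lists had no placed gene, so these cell types were not checked.

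The 28 genes with a liver peak only, named here after their values were seen, included several of known liver function. FTCD, an enzyme of histidine and folate breakdown, had its larger liver peak at the 50.3 percentile (chr1:145863475-145863981). ITIH1, a heavy chain of a plasma protease inhibitor, stood at 38.9, and SLC51A, a subunit of the bile acid exporter, stood at 37.0. AGXT, the peroxisomal enzyme that detoxifies glyoxylate, stood at 25.4, and IGFBP1, a secreted carrier of insulin-like growth factors, stood at 24.4. Over the 28 genes the median percentile was 23.6, with a range of 2.50 to 93.6. The 5 genes named here were also picked by hand, and how many of all placed genes have a known liver function was not counted. Most placed genes of the fixed liver lists, given above, had no liver peak.

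Other genes of the 28 are known from white blood cells. They were picked by hand after their values were seen, and how many of all placed genes are of this kind was not counted. ITGA4, an integrin of white blood cells, had a liver peak at the 52.4 percentile and CD244, a receptor of natural killer cells, had one at 37.8. LCK, a kinase of T cell signaling, stood at 4.08. CATHL4 and CATHL1, antimicrobial cathelicidins of neutrophils, stood at 42.8 and 8.73. KIR3DL2, an immunoglobulin-like receptor of natural killer cells, stood at 11.6 and WC1.3, a scavenger receptor of gamma delta T cells, stood at 22.8. No gene of the blood and immune list was placed, so the level of these cells was not checked with markers.

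Among the 396 named genes with a hypothalamus peak only, the peaks near the start had a median percentile of 78.6. Those with the largest AUC, named after their values were seen, were led by BIN1, a membrane-bending protein, with 35002 (chr2:5416738-5425334), and ADAMTS4, a protease of the extracellular matrix, with 30150 (chr3:8299359-8306719). The microRNA gene MIR185 had 26692 (chr17:72943107-72951979), and GAL3ST1, the enzyme that makes the myelin lipid sulfatide, had 23745 (chr17:69551120-69555797). TF followed with 22649, PAQR6, a membrane progestin receptor, with 22557, and TMEFF2, a transmembrane protein, with 19063. GPR37, a receptor of oligodendrocytes, had 17609, and NXPE3 had 17091. These 9 stood at or above the 98.9 percentile of the hypothalamus list.

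**Figure D3:**
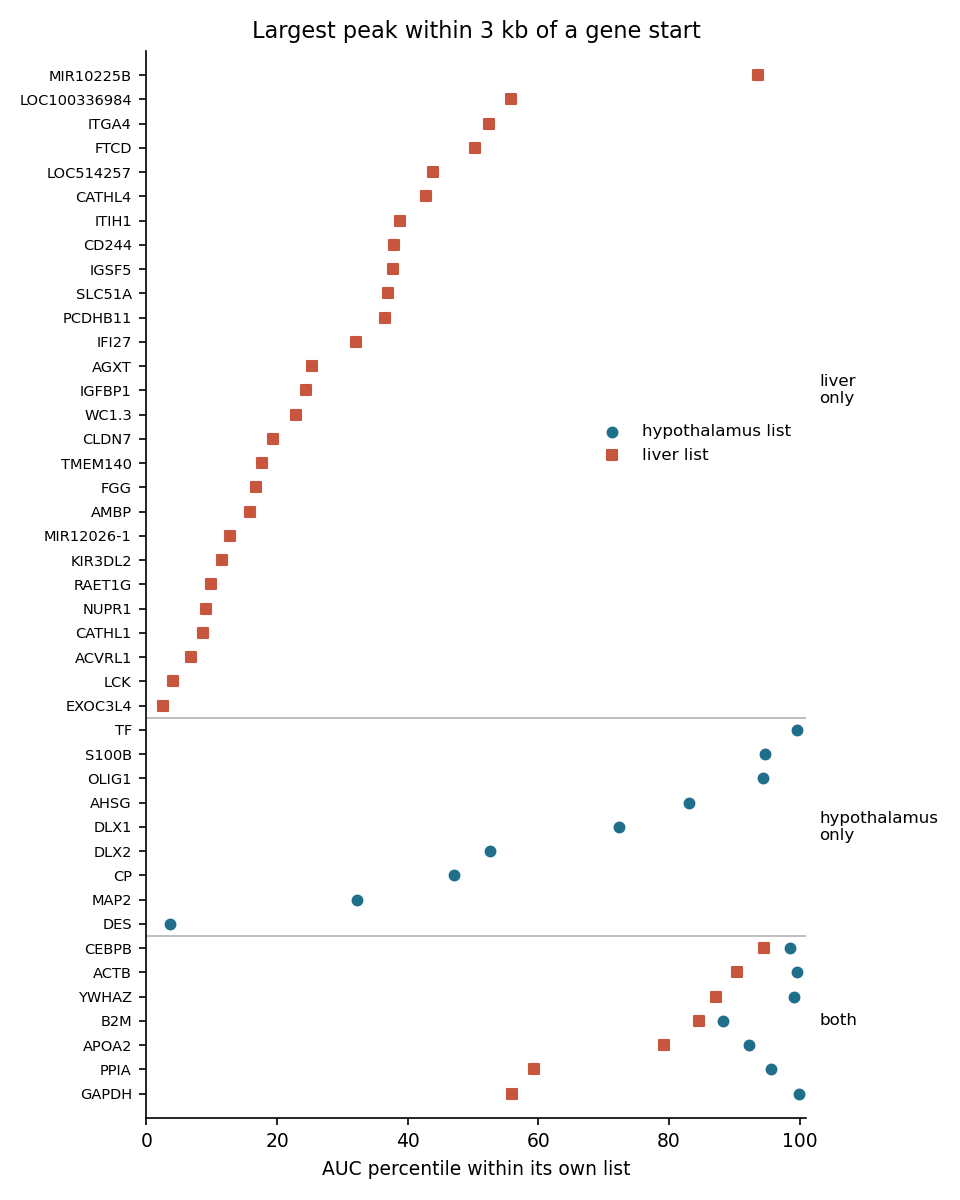
AUC percentile, within its own list, of the largest peak within 3 kb of the start of the placed marker genes and liver-only genes drawn; circles are hypothalamus, squares liver, and a missing symbol means no peak. The drawn genes with both stand higher in hypothalamus, within lists of unequal size, and the drawn liver-only genes lie between 2.50 and 93.6.

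The balance between the tissues differed between chromosomes. Hypothalamus peaks per liver peak were fewest on chromosome 18 (4.40, 2862 against 650 peaks), chromosome 25 (4.79, 1757 against 367), and chromosome 19 (5.16, 3404 against 660). They were most numerous on chromosome 24 (11.2, 1491 against 133), chromosome 20 (9.99, 1398 against 140), and chromosome 14 (8.63, 1933 against 224). Chromosomes 18, 25, and 19 were the densest in peaks of both tissues. Liver peaks are the divisor of the ratio, so a low ratio where they are dense is partly built in. The density ran from 1.97 to 10.6 liver peaks per Mb, and from 18.0 to 54.5 hypothalamus peaks per Mb, with a Spearman correlation of 0.87 between the tissues over the 29 chromosomes.

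With equal numbers of peaks the chromosomes were closer together. The ratios relative to all 29 chromosomes then became 0.886 on chromosome 18, 0.989 on chromosome 25, and 0.921 on chromosome 19, and 1.30, 1.30, and 1.10 on chromosomes 24, 20, and 14. The lowest was that of chromosome 27, at 0.677. Chromosome 27 also had the lowest share of liver peaks that were shared, 65.1% (58.2 to 71.5), against a median of 90.3% over the chromosomes. Its 68 liver-only peaks were second in number to the 114 of chromosome 18.

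**Figure D4:**
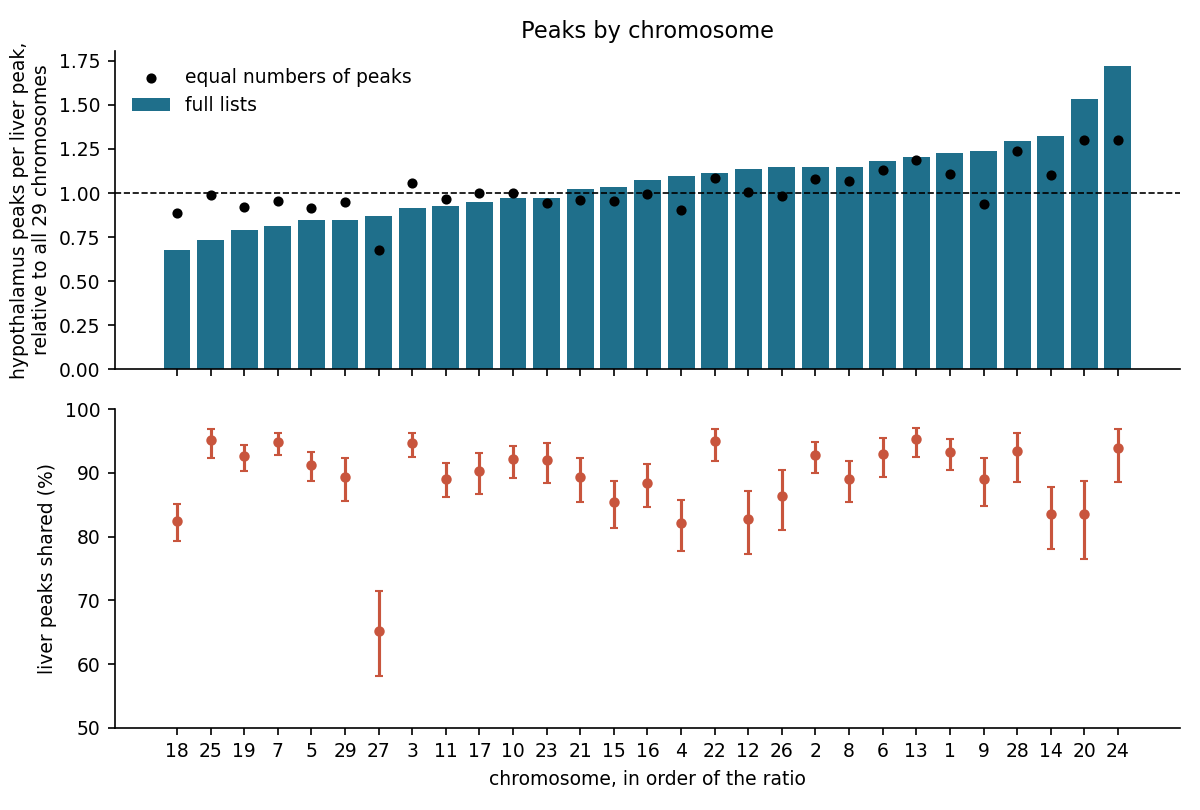
Top, hypothalamus peaks per liver peak on each chromosome relative to all 29 (dashed line at 1), as bars for the full lists and points for equal numbers of the strongest peaks; bottom, share of liver peaks (%) that overlap a hypothalamus peak, with Wilson 95% intervals. The bars run from 0.676 on chromosome 18 to 1.72 on chromosome 24, and chromosome 27 has the lowest shared share, 65.1%.

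In windows of 1 Mb, both tissues had their peaks in much the same places. Over the 2471 windows, the median was 21 hypothalamus peaks (quartiles 8 and 40.5, highest 140) and 2 liver peaks (quartiles 0 and 5, highest 86). The Spearman correlation of the counts was 0.76, and 0.83 with equal numbers of peaks, given as a description since neighboring windows share gene density and mappability. There were 1768 windows with peaks of both, 632 with hypothalamus peaks only, 6 with liver peaks only, and 65 with none. Liver peaks outnumbered hypothalamus peaks in 20 windows.

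The 3 windows in which the share of the hypothalamus list exceeded that of the liver list by most were chr16:2000001-3000000 (121 hypothalamus and 5 liver peaks), chr11:97000001-98000000 (97 and 3), and chr9:98000001-99000000 (91 and 3). No gene was placed in them. The 3 windows with the largest difference the other way were chr27:6000001-7000000 (79 hypothalamus and 86 liver peaks), chr18:57000001-58000000 (39 and 55), and chr29:43000001-44000000 (122 and 57). In the last, 2 liver peaks had no hypothalamus overlap, so it was rich in shared peaks. In the other two, 47 and 44 liver peaks had none.

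The 1059 liver-only peaks were spread over 467 windows (18.9%), unevenly. The 12 windows with most of them, chosen after their values were seen, held 300 of them (28.3%), 4.28% of all liver peaks, and 0.733% of the hypothalamus peaks, and the other 759 lay elsewhere. The unshared share in these windows, 67.0% against 7.58% elsewhere, was fixed by how they were chosen and is given as a description. Without them the share of liver peaks found in hypothalamus was 92.4%. The liver-only peaks there had a median summit −log10 p of 3.71 and a median length of 568 bp, against 3.83 and 352 bp for the 759 liver-only peaks elsewhere.

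Of the 12 windows, 4 held families of immune genes that lie in tandem copies, which was noticed after the values were seen and not counted over all windows. The window chr27:6000001-7000000 and its neighbor chr27:7000001-8000000, with 47 and 17 liver-only peaks, hold the beta-defensins, small antimicrobial peptides. Of 7 placed DEFB genes, 5 had a peak of both tissues near the start, close to the 63.7% of all placed genes. DEFB13 stood at the 94.3 percentile in liver and the 18.0 in hypothalamus. DEFB10 stood at 68.8 and 11.8, and DEFB5 at 62.5 and 20.3, but at both genes the hypothalamus and liver peaks did not overlap. These genes had the largest gaps of the 5. In the rest of the 5 the gap was smaller, and the hypothalamus peak had the larger AUC. DEFB had a hypothalamus peak only, at 26.4, and DEFB1 had none. EBD, placed in the window of DEFB5 and not among the 7, had both peaks, at 57.0 in liver and 19.3 in hypothalamus.

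The window chr5:102000001-103000000, with 22 liver-only peaks among 23 liver and 4 hypothalamus peaks, holds WC1, WC1.3, and WC-7, scavenger receptors of gamma delta T cells, of which WC1.3 alone had a peak near its start. The window chr18:62000001-63000000, with 22 liver-only peaks among 37, holds KIR3DL2, KIR3DS1, and NCR1, receptors of natural killer cells, and the latter 2 had no peak of either tissue near the start. The window chr18:50000001-51000000, with 25 liver-only peaks among 44, holds CEACAM1, an adhesion molecule of bile canaliculi and white blood cells, whose start had a hypothalamus peak only. In the remaining windows no such family was recognized from the names of the placed genes. The windows chr4:105000001-106000000 and chr12:72000001-73000000 held 29 and 28 liver-only peaks, with 14 and 9 hypothalamus peaks in all, and the genes placed there included SSBP1 and CLDN10. The windows on chromosomes 14, 15, 19, and 26 held 22, 16, 15, and 13 liver-only peaks, with LRATD2 placed in the first and TTYH2 in the third. Near-identical gene copies share reads, which the peak caller counts in fractions at each place, so peaks in these windows cannot be assigned to 1 copy with certainty. The part of this in the liver-only peaks was not tested.

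**Figure D5:**
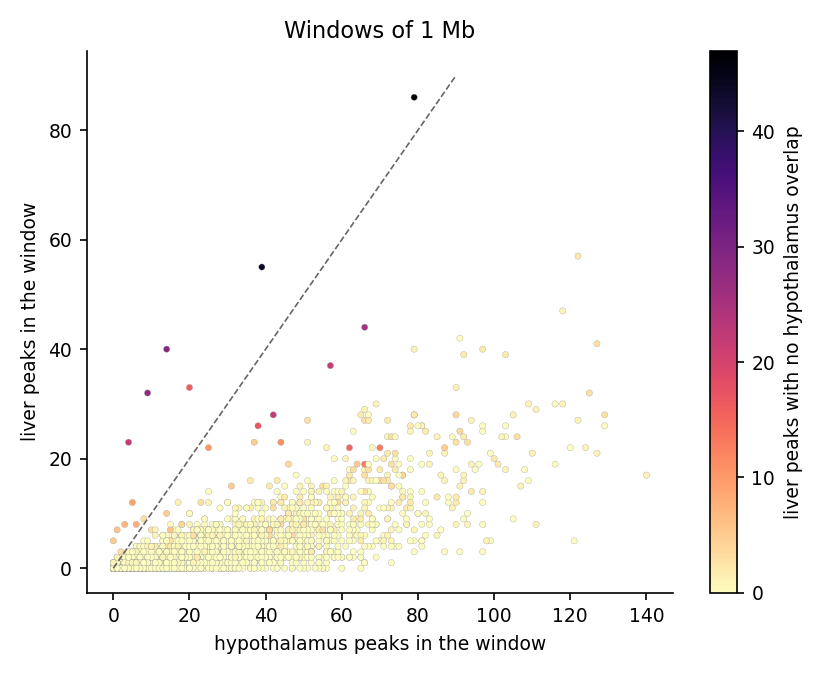
Hypothalamus peaks (horizontal axis) and liver peaks (vertical axis) in each of the 2471 windows of 1 Mb; color gives the liver peaks without a hypothalamus overlap, and the dashed line marks equal counts. Liver exceeds hypothalamus in 20 windows above the line, the topmost having 86 liver and 79 hypothalamus peaks.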

How the data were processed

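ATAC-seq libraries of hypothalamus and liver from 3 heifers (6 libraries) were analyzed from the consensus peak lists, grouped by the tissue named in the sample labels. The authors mapped reads with HISAT2 to the ARS-UCD1.2 build, keeping up to 10 alignments of a read. Peaks came from Genrich 0.6.1 (version as in the submitters' processing notes) at a p threshold of 0.01. PCR duplicates and mitochondrial reads were removed, and reads with several alignments were counted in fractions, so repeated sequence can carry peaks. Genrich combined the p values of the heifers by Fisher's method, so replicates are pooled in the deposited lists. The deposited signal is the AUC of a peak, and the deposited −log10 p is that of its summit, without correction for multiple tests. Peak limits and summit offsets are deposited in bp, with starts counted from 0 and printed here from 1. The lists carry no depth. The paper gives mapping statistics for each sample, which were not used here.

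Peaks on chromosomes 1 to 29 from position 1000000 were compared, with 1 bp of overlap as shared, in full lists and in equal numbers of the strongest peaks by summit. Percentiles were taken within each list. Windows of 1 Mb were tiled from 1000000 and peaks assigned by midpoint. Gene starts came from the authors' supplementary annotation of peaks on ARS-UCD1.2, used for positions and names only and in part. A gene was given the largest peak by AUC within 3 kb of its start. Calculations used python 3.11.15, numpy 2.4.6, and pandas 2.3.3, and plots matplotlib 3.10.9. The overlap code was tested on simulated data. Named items are the placed marker genes, and by fixed number the peaks, pairs, chromosomes, and windows with the most extreme values (3 each). For any other item the text says that it was chosen on its values. The comparison and the gene lists were chosen with earlier results of these data known. Alternatives used other overlaps, strengths, distances, window sizes, and limits. Muscle peaks were not used, sequence content was not analyzed here, and a few of the named items are not reported here.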

Additional observations from a re-analysis of the deposited data

How the results depend on the processing

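No paired analysis was possible because each list pools its heifers without a value for any of them, and leaving out each heifer in turn was not possible for the same reason. The alternatives on sequence content were not run. A summit −log10 p of at least 5 left 43698 hypothalamus and 3920 liver peaks, a ratio of 11.1, and shared shares of 8.51% in hypothalamus and 96.4% in liver. Equal numbers of peaks by summit gave shared shares of 60.5% and 65.9%, and by AUC 61.7% and 67.5%. Counting a peak within 1 kb gave 14.4% and 91.5%, keeping the first 1 Mb gave 13.5% and 87.1%, and asking for the summit inside the other peak gave 12.6% in hypothalamus. Without the 12 windows with most liver-only peaks, an alternative chosen after seeing the data, the liver share was 92.4%. The median percentile difference of the pairs turned to −5.34 with equal numbers, over 5836 pairs in place of 8169, and the cause was not tested, while the Spearman correlation fell to 0.42 with AUC per bp. The highest chromosome ratio over the lowest was 2.55, and 1.92 with equal numbers. The window correlation was 0.85 in windows of 5 Mb. The promoter share was 47.9% in hypothalamus with equal numbers, 11.3% within 1 kb, and 9.86% for peaks covering a start, which in liver gave 44.6%. With equal numbers, 104 placed genes had a hypothalamus peak only and 246 a liver peak only, since hypothalamus peaks were dropped. The 18 recomputed values of single chromosomes and windows kept their direction, and 14 of them moved by over 10%. The lists give no depth, so a peak that is missing in liver may be below detection there.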
